A study of Mus musculus with 20 samples.

Results

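Liver RNA was examined for 36 genes of the unfolded protein response and the integrated stress response, taken by name from the 53599 genes of the count tables. They fall into an ATF4 arm of 14 genes and a chaperone arm of 22 genes, and the rule that lists them uses gene names and no threshold on measured values. The genes were, however, chosen with earlier results of these data known. Livers of both sexes were taken from knockout mice without PPARα (KO), a nuclear receptor for fatty acids, and from mice with a human PPARα transgene (hPPARa). From weaning and for 6 to 7 weeks, the drinking water of every group held 0.5% sucrose, that of the exposed groups also held PFOA, a perfluorinated surfactant, at 8 µM (the design text writes the unit as µm, read here as micromolar; water without PFOA is called vehicle), and all mice ate a diet that drew 51.8% of its energy from carbohydrate, 33.5% from fat and 14.7% from protein. The 20 libraries were 3 hPPARa female vehicle, 2 hPPARa male vehicle, 2 hPPARa female PFOA, 3 hPPARa male PFOA, 1 KO female vehicle, 3 KO male vehicle, 3 KO female PFOA and 3 KO male PFOA. The sources used here name neither the promoter of the transgene nor the deleted part of the mouse gene, and give no wild-type group.

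Proteins that misfold in the endoplasmic reticulum (ER) are sensed by 3 membrane proteins: PERK (Eif2ak3), IRE1α (Ern1) and ATF6. PERK phosphorylates the translation factor eIF2α, as do kinases that respond to amino acid shortage, mitochondrial stress and double-stranded RNA; general protein synthesis then falls while translation of the transcription factor ATF4 rises, and ATF4 switches on genes for amino acid supply, transfer RNA charging and, with CHOP (Ddit3), cell death. IRE1α splices the messenger of XBP1, and XBP1 and cleaved ATF6 switch on the chaperones and disulfide isomerases that fold secretory proteins, a large task in hepatocytes, which secrete most plasma proteins. ATF4 is controlled mainly at translation and ATF6 and IRE1α at the protein level, so messenger counts read the targets of these factors more directly than their activity.

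The promoters of the 2 arms carry different elements, and a few stretches are shown from genes described below. Promoters of 33 of the 36 genes were found in RefSeq (GRCm38.p6), each 250 bases before to 50 bases after the gene start, and were searched on both strands. The ER stress element, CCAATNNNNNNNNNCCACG, stood in 8 of 19 chaperone arm promoters (Calr, Canx, Creld2, Dnajc3, Hsp90b1, Hspa5, Pdia6 and Syvn1), in 0 of 14 ATF4 arm promoters and in 0.137% of all 27025 gene promoters. Its short form, ATTGG and CCACG with 1 base between them, stood in Dnajb11 and Herpud1 and in 0.0444% of all. The amino acid response element bound by ATF4 dimers, TGATGNAA, stood in 4 of 14 ATF4 arm promoters (Asns, Atf3, Chac1 and Trib3), in 1 of 19 of the chaperone arm (Herpud1) and in 4.51% of all. The UPR element, TGACGTGG, was in none of the 33 promoters and in 0.714% of all. Capitals mark the fixed letters of the match, and positions are counted from the gene start as 0.
Asns, chr6:7693210-7693359, minus strand, bases −150 to −1, amino acid response element at −23 to −16: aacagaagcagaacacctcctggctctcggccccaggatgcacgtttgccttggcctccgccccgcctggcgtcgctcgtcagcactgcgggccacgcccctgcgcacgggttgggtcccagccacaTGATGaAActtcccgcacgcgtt
Trib3, chr2:152344028-152344057, minus strand, bases 3 to 32, amino acid response element on the opposite strand at 14 to 21: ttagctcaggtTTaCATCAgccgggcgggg
Calr, chr8:84846982-84847131, minus strand, bases −200 to −51, ER stress element on the opposite strand at −162 to −144: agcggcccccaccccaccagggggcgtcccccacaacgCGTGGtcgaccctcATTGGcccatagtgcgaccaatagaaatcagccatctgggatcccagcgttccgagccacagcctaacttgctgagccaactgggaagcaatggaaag
Pdia6, chr12:17266439-17266588, plus strand, bases −150 to −1, ER stress element at −98 to −80: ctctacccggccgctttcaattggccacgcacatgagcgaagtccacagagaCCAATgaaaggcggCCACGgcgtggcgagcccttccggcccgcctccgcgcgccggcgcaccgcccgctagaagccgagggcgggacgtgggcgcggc
Dnajb11, chr16:22857843-22857871, plus strand, bases −2 to 26, short ER stress element at 7 to 17: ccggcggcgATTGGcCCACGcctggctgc
A match is a run of letters and not a measured binding site.

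The libraries held 14973673 to 17953860 counts and 19696 to 24481 detected genes each, and values below are CPM (counts scaled to a common library size) after TMM scaling (factors 0.895 to 1.08). CPM is not corrected for gene length, so levels are compared between libraries and not between genes. Hepatocyte markers summed to 72680 to 215800 CPM. The mouse Ppara row read 17 to 39.6 CPM in hPPARa and 8.42 to 25.1 CPM in KO livers, which does not check the genotype while the deleted part is not given. In 3 KO libraries transcripts of the other sex were raised beside those of the labelled sex. KO female PFOA replicate 2 had Ddx3y (Y-linked) at 4.07 CPM and KO female vehicle replicate 1 at 1.86 CPM (other females at most 0.415). Their Xist, which females express, stood at 498 and 477.5 CPM. KO male PFOA replicate 2 had Xist at 30.8 CPM (other males at most 4.4), beside Ddx3y at 43.6 CPM. Where leaving out these libraries moved a gene across the threshold, the value without them is given as well. Without these 3 libraries, or without KO female vehicle replicate 1 alone, KO females had no vehicle library. The PFOA effect in KO then came from males alone. The labels do not say whether replicates were separate animals, so p-values measure the spread between these samples.

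In hPPARa livers PFOA calls in the ATF4 arm were all higher and those in the chaperone arm were lower in all cases except Eif2ak3. Asns and Trib3 rose most, and Sdf2l1 and Dnajb11 fell most. Of 35 genes tested (Phgdh, of serine synthesis, had 0 to 0.366 CPM and was not tested), 11 passed an adjusted p of 0.05, where 22.6% of all 14400 genes tested did. In the ATF4 arm 5 of 13 rose and 0 fell (background 12.8% higher), with a median log2 fold change of 0.45, against −0.01 for all genes. In the chaperone arm 1 of 22 rose and 5 fell (background 9.76% lower), with a median of −0.28.

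Asns makes asparagine from aspartate and glutamine. It stood at 0.915, 1.16 and 1.04 CPM in hPPARa female vehicle livers and at 1.56 and 0.671 CPM in male vehicle livers. On PFOA it stood at 4.78 and 3.86 CPM in females and at 12.0, 29.8 and 23.4 CPM in males. Every PFOA library lay above every vehicle library, and the males lay above the females, a log2 fold change of 3.20 ± 0.49 (SE; 9.20-fold, adjusted p = 0.0019).
Trib3, a pseudokinase that restrains ATF4 and AKT signalling, read 8.60, 14.7 and 15 CPM in female and 10.1 and 7.79 CPM in male vehicle livers. PFOA brought it to 49.1 and 34.1 CPM in females and 46.2, 41.7 and 44.8 CPM in males, a rise of 1.99 ± 0.19 on the log2 scale (3.96-fold, adjusted p = 2.4e-05). The PFOA values lay close together in both sexes and far above vehicle.
Sesn2, which signals leucine shortage to mTORC1, went from 10.7 to 15.3 CPM over the 5 vehicle livers (median 12.0) to 15.5 to 26.8 CPM over the 5 PFOA livers (median 20.7), a log2 fold change of 0.75 ± 0.16 (adjusted p = 0.0045). The groups were adjacent but did not overlap. These 3 calls and those of the 5 chaperones held in each of the 16 alternative analyses of this comparison.

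Mthfd2, of mitochondrial folate metabolism, rose by 1.06 ± 0.31 (adjusted p = 0.0237), from 0.670 to 1.10 CPM to 1.18 to 2.89 CPM. Atf3, a stress-induced repressor, rose by 0.99 ± 0.31 (adjusted p = 0.0328), from 0.484 to 1.28 CPM to 1.58 to 2.17 CPM. Both sat at a level of few counts. The Atf3 call was lost in 9 of 16 alternatives (adjusted p up to 0.416, in the fit of all 20 libraries), and that of Mthfd2 without hPPARa male vehicle replicate 1, male vehicle replicate 2 or female PFOA replicate 2 (0.0576 to 0.0909).
Psat1, of serine synthesis, read 0.130 to 0.976 CPM on vehicle and 0.434 to 3.94 CPM on PFOA, 1.75 ± 0.58 apart (adjusted p = 0.0515). Its groups overlapped through male PFOA replicate 2 at 0.434 CPM. The transcription factors at the head of the arm did not pass. Ddit3 read 4.70 to 8.54 CPM on vehicle and 6.13 to 11.2 CPM on PFOA, with the males highest. Ddit3 differed by 0.45 ± 0.21 (adjusted p = 0.143), Atf4 by −0.18 ± 0.09 (0.172) and Atf5, which follows ATF4 at translation, by 0.05 ± 0.16 (0.862). Chac1, which degrades glutathione, differed by −1.35 ± 0.58 (0.126), and Ddit4, an mTORC1 inhibitor, Ppp1r15a (GADD34, which recruits the eIF2α phosphatase) and Shmt2, of mitochondrial serine metabolism, differed by −0.27, −0.01 and −0.08, with adjusted p from 0.570 to 0.966.

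**Figure D1:**
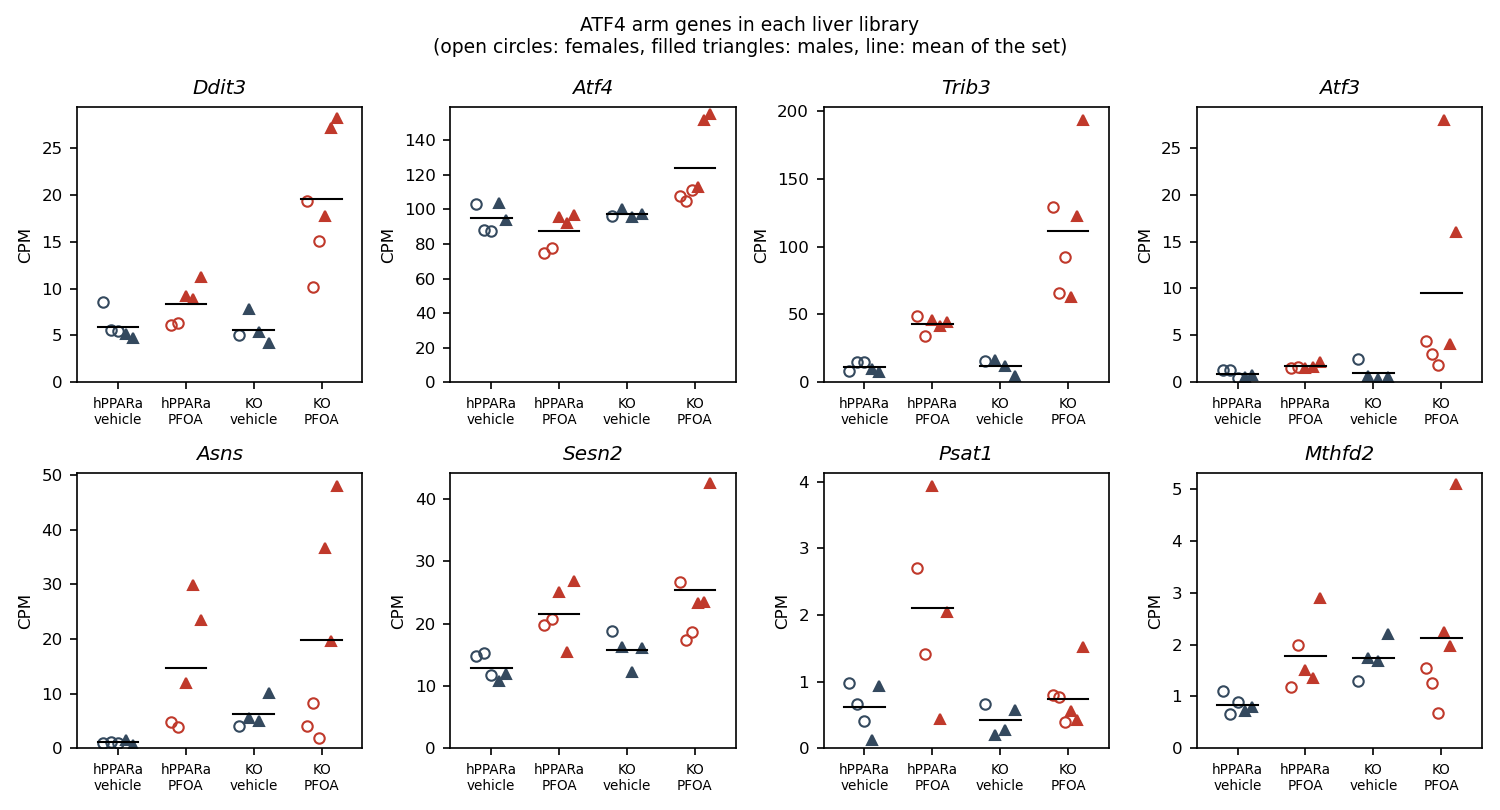
CPM of 8 ATF4 arm genes in each of the 20 libraries (y axis, from 0), by genotype and exposure (x axis); open circles are females, filled triangles males, and lines the mean of the set. Trib3 rises in both genotypes, Asns is highest in PFOA males, and Ddit3 and Atf4 separate PFOA from vehicle in KO but not in hPPARa livers.

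The chaperones that fell in hPPARa livers were a group of soluble ER folding factors. Sdf2l1, a partner of BiP, read 14.6, 12.9 and 14 CPM in female and 18.1 and 17.1 CPM in male vehicle livers, and 6.58 and 6.99 CPM in female and 5.70, 10.7 and 6.51 CPM in male PFOA livers. All 5 PFOA values lay below the lowest vehicle value, a fall of −1.12 ± 0.15 (2.17-fold lower, adjusted p = 1.9e-04).
Dnajb11 (ERdj3), a co-chaperone that hands clients to BiP, read 70.5, 58.3 and 77.2 CPM in female and 76.8 and 85.4 CPM in male vehicle livers, against 41.7 and 37.2 CPM in female and 45.5, 53.3 and 49.1 CPM in male PFOA livers. Here too no PFOA library reached the vehicle range (−0.76 ± 0.10, 1.69-fold lower, adjusted p = 1.0e-04).
Calr (calreticulin), a lectin chaperone that binds calcium, fell from 735 to 960.3 CPM to 507 to 684 CPM (−0.57 ± 0.11, adjusted p = 0.0022). Pdia3 (ERp57), the disulfide isomerase that works with calreticulin, fell from 366 to 484 CPM to 283 to 356 CPM (−0.45 ± 0.10, adjusted p = 0.0061), and Pdia6 from 225 to 283 CPM to 166 to 198 CPM (−0.47 ± 0.10, adjusted p = 0.0036). None of these 3 overlapped between exposures. In all, 5 ATF4 arm genes lay wholly above vehicle and 5 chaperone arm genes wholly below, where 14.3% of all genes did not overlap (8.63% above, 5.68% below). Calr and Pdia6 hold the ER stress element shown above and Dnajb11 its short form, while 6 other promoters with the long form, among them Hspa5, belonged to genes that did not pass.

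The main ER chaperones Hspa5 (BiP) and Hsp90b1 (GRP94) did not pass in hPPARa livers. Hspa5 read 275 to 451 CPM on vehicle and 263 to 424 CPM on PFOA (−0.27 ± 0.16, adjusted p = 0.265), and Hsp90b1 differed by −0.25 ± 0.12 (0.168). Other XBP1 and ATF6 targets also missed the threshold: Dnajc3, an inhibitor of PERK, at −0.30 (0.0653), Creld2 at −0.47 (0.0766), the secreted factor Manf at −0.44 (0.211), Hyou1, a nucleotide exchange factor for BiP, at −0.41 (0.155) and Dnajb9 (ERdj4), which keeps IRE1α off, at 0.22 (0.278). Pdia4, another disulfide isomerase, stood at 0.28 ± 0.10 (0.0674), opposite in sign to Pdia3 and Pdia6.
Among the genes that remove misfolded proteins, Herpud1 stood at −0.29, Sel1l at −0.06, Edem1 at −0.03 and Syvn1 (the ubiquitin ligase HRD1) at −0.04, none past the threshold (adjusted p from 0.195 to 0.868). Of the sensors, Eif2ak3 (PERK) rose by 0.55 ± 0.15 (adjusted p = 0.0201), from 7.06 to 12.8 CPM to 11.4 to 15.2 CPM. Vehicle male replicate 2, at 12.8 CPM, lay inside the PFOA range, and the call was lost without male vehicle replicate 1, female PFOA replicate 1 or female PFOA replicate 2 (adjusted p = 0.0608 to 0.0823). Ern1, Atf6, Xbp1 and the lectin chaperone Canx stood at −0.30, 0.05, −0.23 and 0.04 (adjusted p from 0.126 to 0.808).

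**Figure D2:**
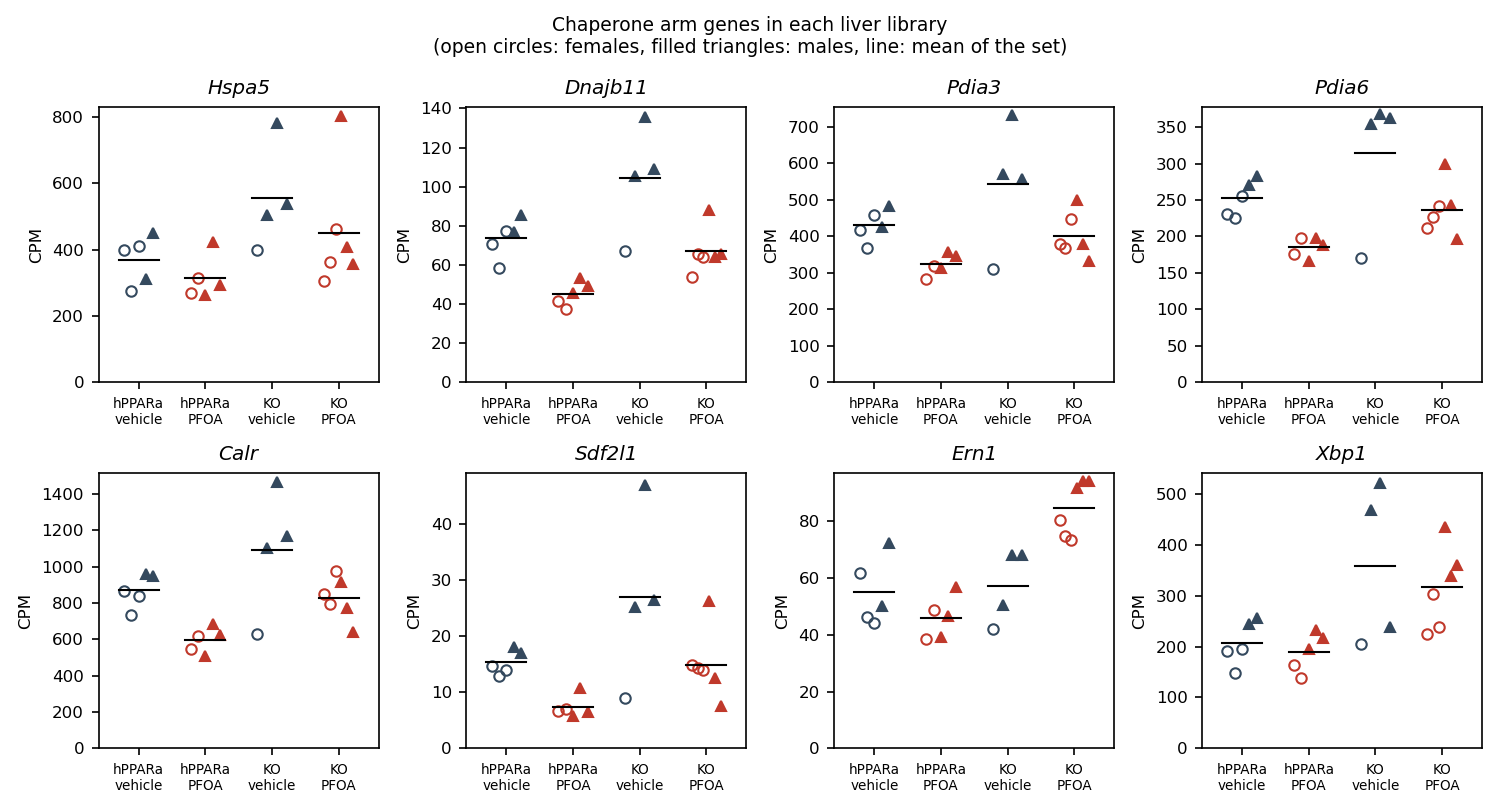
CPM of 8 chaperone arm genes in each of the 20 libraries (y axis, from 0), by genotype and exposure (x axis); open circles are females, filled triangles males, and lines the mean of the set. Dnajb11, Pdia3, Pdia6, Calr and Sdf2l1 fall without overlap in hPPARa livers, while the KO vehicle livers spread widely, with the single KO female on vehicle the lowest of the 4 for each of the 8 genes.

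In KO livers PFOA raised the messengers of 2 transcription factors of the ATF4 arm. Ddit3 and Atf4, which did not pass in hPPARa livers, rose together with Trib3 and with the sensor Ern1, while Atf3 and Atf5 did not pass. Of 35 genes tested 6 passed, where 13.8% of all 15334 genes did. In the ATF4 arm 3 of 13 rose and 0 fell (background 7.41% higher), with a median log2 fold change of 0.73 against −0.02 for all genes. In the chaperone arm 2 of 22 rose and 1 fell (background 6.36% lower), with a median of −0.11.

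Ddit3 encodes CHOP, the transcription factor that ties lasting ER stress to cell death. It read 5.07 CPM in the KO female vehicle liver and 7.82, 5.41 and 4.23 CPM in the males, and on PFOA 19.3, 10.2 and 15.1 CPM in females and 17.7, 27.2 and 28.2 CPM in males. All 6 PFOA livers lay above all 4 vehicle livers (1.90 ± 0.25, 3.72-fold, adjusted p = 7.9e-04), and the call held in each of 18 alternatives. Such separation was found for 3 ATF4 arm genes and 1 chaperone arm gene in KO, all above, and for 9.64% of all genes (5.67% above, 3.97% below).
Trib3 read 15.7 CPM in the female and 16.6, 11.8 and 4.99 CPM in the male vehicle livers, and 129, 65.9 and 92.2 CPM in female and 63.0, 123 and 193 CPM in male PFOA livers. The lowest PFOA liver exceeded the highest vehicle liver several times over (3.19 ± 0.49, 9.10-fold, adjusted p = 0.0053; 3.53, adjusted p = 0.0729, without the 3 libraries with transcripts of the other sex).
Atf4 read 96.3 CPM in the female and 100.3, 95.5 and 97.1 CPM in the male vehicle livers, against 108, 105 and 111 CPM in female and 113, 152 and 155 CPM in male PFOA livers. The groups were separate, but 4 of the 6 PFOA livers, at 105 to 113 CPM, lay just above vehicle (0.40 ± 0.11, 1.32-fold, adjusted p = 0.0284). This call was lost in 8 of 18 alternatives, among them without the 3 libraries (0.46, adjusted p = 0.111) and without any 1 of KO male vehicle replicates 1 to 3 or KO male PFOA replicates 2 and 3 (adjusted p = 0.0648 to 0.0893).

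The rest of the ATF4 arm varied widely among KO livers on PFOA. Atf3 read 1.80 to 4.37 CPM in 3 females and in male replicate 2, but 28.0 and 16.0 CPM in male replicates 1 and 3, against 0.406 to 0.668 CPM in vehicle males and 2.53 CPM in the vehicle female (2.92 ± 1.01, adjusted p = 0.101). Without KO female vehicle replicate 1 it passed (4.86, adjusted p = 0.0123), as it did without the 3 libraries (5.31, adjusted p = 3.1e-04), both from males alone.
Asns read 4.05, 8.30 and 1.80 CPM in KO PFOA females and 36.6, 19.6 and 48.0 CPM in KO PFOA males, against 4.08 to 10.2 CPM on vehicle. The males were high and the females were not (1.69 ± 0.59, adjusted p = 0.101). The value was 2.33 (adjusted p = 0.0458) without KO female vehicle replicate 1 and 2.61 (adjusted p = 0.0105) without the 3 libraries. Both of these fits leave males alone.
Sesn2 stood at 0.70 ± 0.25 (adjusted p = 0.0871; 1.01, adjusted p = 0.0393, without the same library), Ddit4 at 1.40 ± 0.47 (0.0762), Atf5 at 0.73 (0.259), Psat1 at 0.75 (0.341), Mthfd2 at 0.45 (0.404), Chac1 at 0.31 (0.680; 1.22, adjusted p = 0.0496, without the 3 libraries), Ppp1r15a at 0.21 (0.304) and Shmt2 at −0.14 (0.445). Ddit4 passed without KO female PFOA replicate 3 (1.58, adjusted p = 0.0042), the 1 PFOA liver at 1.29 CPM where the others had 3.59 to 6.5 CPM.

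Ern1, the gene of IRE1α, was the clearest change in the chaperone arm of KO livers. It read 41.9 CPM in the female and 50.4, 68.0 and 68.1 CPM in the male vehicle livers, and 80.4, 74.8 and 73.3 CPM in female and 91.7, 94.0 and 94.2 CPM in male PFOA livers. The PFOA livers lay above vehicle without overlap (0.67 ± 0.10, 1.6-fold, adjusted p = 0.0012), and 17 of 18 alternatives kept the call (0.58, adjusted p = 0.0594, without the 3 libraries).
Dnajb9 rose by 0.63 ± 0.17 (adjusted p = 0.0342), from 30.6 to 40.0 CPM to 37.3 to 85.4 CPM, and Dnajb11 fell by −0.51 ± 0.14 (adjusted p = 0.0275), from 67.0 to 136 CPM to 54.1 to 88.2 CPM. Groups overlapped for both, and 6 of 18 alternatives lost each call, among them the left-out libraries KO male vehicle replicates 1 to 3 and KO female PFOA replicate 2 for Dnajb9 (adjusted p = 0.0580 to 0.0854), and KO male vehicle replicates 2 and 3 and KO male PFOA replicates 2 and 3 for Dnajb11 (0.0513 to 0.0902). Without the 3 libraries with transcripts of the other sex Dnajb11 stood at −0.60 (adjusted p = 0.0877).
The remaining 19 chaperone arm genes did not pass. Atf6 stood at 0.32 ± 0.10 (adjusted p = 0.0600) and Pdia4 at 0.42 ± 0.15 (0.0809), Hspa5 at −0.17 ± 0.25, Pdia3 at −0.32 ± 0.19, Pdia6 at −0.26 ± 0.17, Calr at −0.33 ± 0.21 and Sdf2l1 at −0.59 ± 0.47 (adjusted p from 0.297 to 0.693).

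Single KO livers carried much of this spread. KO female vehicle replicate 1, the only KO female on vehicle, was the lowest of the 4 KO vehicle livers for 17 of 22 chaperone arm genes, and KO male vehicle replicate 2 the highest for 15. Without the female the PFOA effect in KO came from males alone. Calr (−0.68, adjusted p = 0.0196), Pdia3 (−0.62, 0.0364) and Pdia6 (−0.55, 0.0291) then also passed as lower, so that 4 chaperone arm genes fell and 2 rose. The KO male values given below rest on the same male libraries and are not a separate result. KO male PFOA replicate 1 was the highest of the 6 KO PFOA livers for 15 of 22 chaperone arm genes, with Hspa5 at 803 CPM (others 304 to 463), Creld2 at 55.5 CPM (others 11 to 19.6), Hyou1 at 191 CPM (others 47.1 to 101) and Manf at 158 CPM (others 54.1 to 75.4). In the ATF4 arm the same liver had the highest Atf3 and Chac1 but the lowest Trib3, and male replicate 3 was the highest for 7 of 14 genes.

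**Figure D3:**
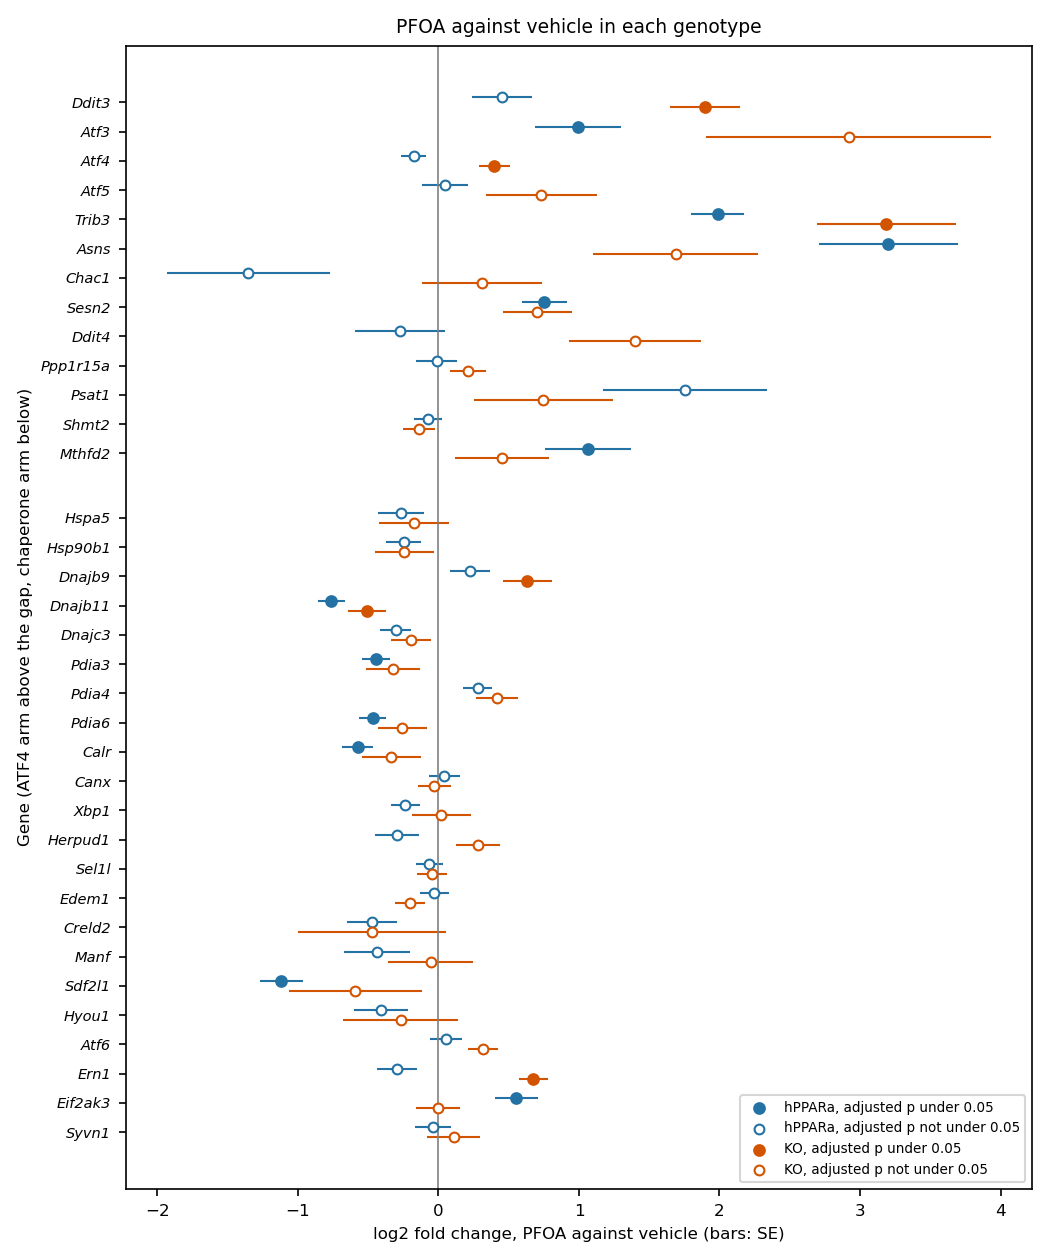
Log2 fold change of PFOA against vehicle (x axis; bars are SE) for the 35 genes tested (y axis, ATF4 arm above the gap), in hPPARa (blue) and KO livers (orange); filled points have an adjusted p under 0.05. Trib3 is filled in both genotypes on the right and Dnajb11 in both on the left, Asns in hPPARa only, and Ddit3, Atf4 and Ern1 in KO only.

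Trib3 and Dnajb11 passed in both genotypes, with the same sign; 9 genes passed in hPPARa and not in KO, and 4 in KO and not in hPPARa. The PFOA effect itself differed between genotypes for 3 of 35 genes, where 1.17% of all 15811 genes did (0.443% higher, 0.727% lower). The effect in KO minus that in hPPARa was 1.44 ± 0.35 for Ddit3 (adjusted p = 0.0488), 0.57 ± 0.14 for Atf4 (0.0423) and 0.97 ± 0.19 for Ern1 (0.0136), each higher in KO. For Asns the difference was −1.54 ± 0.83 (0.437), for Trib3 1.2 ± 0.51 (0.308), for Dnajb11 0.25 ± 0.17 (0.554) and for Sdf2l1 0.52 ± 0.50 (0.697). Asns and Sdf2l1 passed in hPPARa and not in KO, and for neither was the effect shown to differ between genotypes. For Atf3 the difference was 1.91 ± 1.11 (0.480), and 4.32 (adjusted p = 9.8e-04) without the 3 libraries that also held transcripts of the other sex. The KO effect was then that of males alone while the hPPARa effect covered both sexes, so genotype and sex cannot be told apart. That fit also left out the lowest KO PFOA male, at 4.13 CPM (others 28.0 and 16.0 CPM). The KO effect is likewise that of males in the values below without these libraries or without KO female vehicle replicate 1. The Ddit3 and Atf4 differences passed in 8 of 25 alternatives each (adjusted p up to 0.145 and 0.140, without the 3 libraries) and that of Ern1 in 23, with 0.88 (adjusted p = 0.0575) without KO female vehicle replicate 1 and 0.88 (adjusted p = 0.171) without the 3 libraries.

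Under PFOA, Ddit3, Atf4, Trib3, Xbp1 and Ern1 were among the genes higher in KO than in hPPARa livers. Of 35 genes 12 passed, 11 higher and 1 lower in KO, where 14.9% of all 15811 genes passed (7.13% higher, 7.79% lower), and 32 of the 35 log2 fold changes were positive, against 7932 of 15811 genes. The medians were 0.52 in the ATF4 arm and 0.37 in the chaperone arm, against 0.00 for all genes. These values rest on the same PFOA libraries as the effects above. The PFOA effect itself passed a test of a difference between genotypes for Ddit3, Atf4 and Ern1, and not for Trib3 or Xbp1.
In the ATF4 arm Ddit3 was higher by 1.22 ± 0.22 (2.32-fold, adjusted p = 9.7e-04), Atf4 by 0.52 ± 0.09 (1.44-fold, 4.5e-04), Trib3 by 1.33 ± 0.33 (2.52-fold, 0.0123), Atf3 by 2.17 ± 0.66 (0.0374) and Atf5 by 1.02 ± 0.30 (0.0282). Atf4 and Trib3 did not overlap, nor did 2 chaperone arm genes, where 8.74% of all genes did not (3.78% above, 4.96% below). Atf4 read 105 to 155 CPM in KO and 74.8 to 96.7 CPM in hPPARa PFOA livers, and Trib3 63.0 to 193 CPM and 34.1 to 49.1 CPM. Ddit3 overlapped only through KO female replicate 2 at 10.2 CPM, below the 11.2 CPM of hPPARa male replicate 3.
Psat1 went the other way, lower in KO by −1.51 ± 0.48 (2.84-fold, adjusted p = 0.0388), with 0.394 to 1.52 CPM against 0.434 to 3.94 CPM. Asns (0.34 ± 0.47, 0.691), Sesn2 (0.21 ± 0.20, 0.543) and Mthfd2 (0.12 ± 0.30, 0.840) did not pass. The calls of Ddit3 and Atf4 held in each of 26 alternatives and that of Trib3 in 25 (adjusted p = 0.0532 without hPPARa female PFOA replicate 2), while Atf3, Atf5 and Psat1 kept theirs in 17, 19 and 15. Without the 3 libraries Psat1 stood at −1.42 (adjusted p = 0.111).

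In the chaperone arm 6 of 22 genes were higher in KO livers on PFOA and 0 lower. Ern1 read 73.3 to 94.2 CPM in KO against 38.5 to 56.8 CPM in hPPARa livers (0.90 ± 0.12, 1.86-fold, adjusted p = 3.2e-05), and Dnajb11 54.1 to 88.2 CPM against 37.2 to 53.3 CPM (0.59 ± 0.11, adjusted p = 0.0011). Both were separate between genotypes. Xbp1, the transcription factor downstream of IRE1α, read 224 to 436 CPM against 138 to 232 CPM (0.79 ± 0.16, adjusted p = 0.0018) and overlapped through 1 liver of each genotype. These 3 calls held in each of 26 alternatives. Xbp1 already stood at 0.53 on vehicle (adjusted p = 0.0969). Its PFOA effect was not shown to differ between genotypes (0.25, adjusted p = 0.689). Nor was that of Atf6 (0.26, adjusted p = 0.491) or Calr (0.24, adjusted p = 0.712).
Atf6 (0.38 ± 0.11, adjusted p = 0.0183) lost its call only without KO female PFOA replicate 3 (0.0538), and Calr (0.49 ± 0.15, 0.0328) and Sdf2l1 (1.08 ± 0.33, 0.0397) kept theirs in 19 and 15 of 26. Manf (0.81 ± 0.27, 0.0567), Pdia6 (0.37 ± 0.13, 0.0632; 0.36, adjusted p = 0.0443, without the 3 libraries), Dnajc3 (0.33 ± 0.12, 0.0732), Hspa5 (0.52 ± 0.21, 0.107) and Hyou1 (0.65 ± 0.31, 0.189) did not pass. The number of chaperone arm calls was 11 without KO male PFOA replicate 3 and 3 without KO female PFOA replicate 3.

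**Figure D4:**
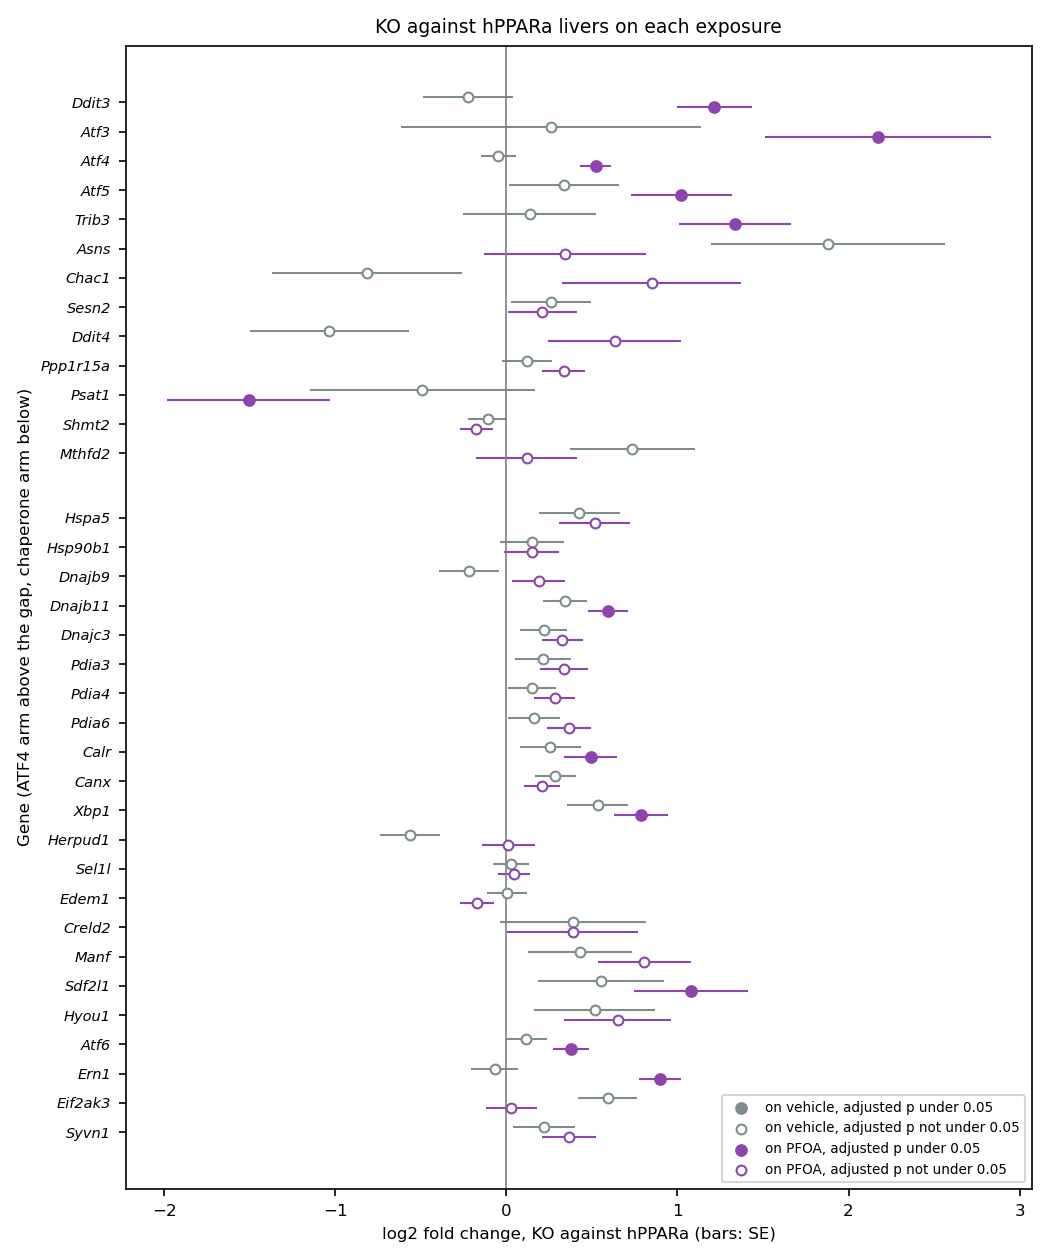
Log2 fold change of KO against hPPARa livers (x axis; bars are SE) for the 35 genes tested (y axis, ATF4 arm above the gap), on vehicle (grey) and on PFOA (purple); filled points have an adjusted p under 0.05. In all, 12 purple points are filled and no grey one, though many chaperone arm genes lie on the same side of 0 on both exposures.

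On vehicle 0 of 35 genes differed between genotypes by edgeR's quasi-likelihood test, where 3.77% of all 15811 genes passed (2% higher, 1.76% lower). Of the 35, 7 had an unadjusted p under 0.05. DESeq2 called 1 ATF4 arm gene, Asns (adjusted p = 0.0301). It also called 3 chaperone arm genes, Eif2ak3 (0.033) and Xbp1 (0.0487) as higher and Herpud1 (0.0402) as lower in KO. Of 26 alternatives 6 called Eif2ak3, 5 Herpud1, 3 Xbp1 and 2 Asns. The chaperone arm nevertheless leaned higher in KO already without PFOA, with 19 of 22 log2 fold changes above 0 and a median of 0.22, against 7779 of 15811 and −0.01 for all genes. Xbp1 stood at 0.53 ± 0.18 (adjusted p = 0.0969), Eif2ak3 at 0.59 ± 0.17 (0.0587) and Herpud1 at −0.57 ± 0.18 (0.0762; −0.88, adjusted p = 0.0443, without the 3 libraries). Atf3 stood at 0.26 ± 0.88 (0.908), and at −2.08 (adjusted p = 0.0385) without the 3 libraries. No KO female vehicle library was then left, and the fit inferred that level from KO PFOA females and the PFOA effect in KO males. The −0.88 of Herpud1 was inferred in the same way, so neither value is measured on vehicle livers alone. In vehicle males Atf3 averaged 0.547 CPM in KO and 0.662 CPM in hPPARa livers.
Asns read 4.08 to 10.2 CPM in KO and 0.671 to 1.56 CPM in hPPARa vehicle livers, without overlap (1.88 ± 0.68, adjusted p = 0.141). In a fit of the vehicle libraries alone it passed (2.35, adjusted p = 0.0019). Mthfd2 (0.74 ± 0.36, 0.269) and Canx (0.29 ± 0.12, 0.185) were also separate, and no gene of either arm was separate in the other direction, where 6.45% of all genes did not overlap (2.95% above, 3.5% below).

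The PFOA effect was also fitted within each sex. In hPPARa females (18.4% of all genes called, 10.5% higher and 7.87% lower) Trib3 (1.70 ± 0.22, adjusted p = 4.7e-04), Asns (2.04 ± 0.43, 0.0094) and Eif2ak3 (0.86 ± 0.19, 0.0080) rose, and Chac1 (−2.58 ± 0.59, 0.0142), Dnajb11, Pdia3, Calr, Creld2 and Sdf2l1 fell. In hPPARa males (8.2% called, 5.3% higher and 2.9% lower) Asns (4.27 ± 0.45, 2.2e-04), Trib3 (2.30 ± 0.25, 1.5e-04), Ddit3 (0.99 ± 0.22, 0.0144) and Sesn2 (0.99 ± 0.21, 0.0131) rose, and Dnajb11, Pdia6, Calr and Sdf2l1 fell.
In KO males (9.1% called, 5.63% higher and 3.46% lower) Ddit3 (2.07 ± 0.30, 0.0029), Atf3 (4.86 ± 0.83, 0.0140), Atf4 (0.53 ± 0.12, 0.0186), Trib3 (3.51 ± 0.60, 0.0173), Sesn2, Dnajb9 and Ern1 rose, and Dnajb11 (−0.68 ± 0.15, 0.0140), Pdia3, Pdia6 and Calr (−0.68 ± 0.16, 0.0197) fell. In KO females (5.31% called, 2.33% higher and 2.97% lower), with a single vehicle liver that is assumed to vary like the other groups, Ern1 alone passed (0.85 ± 0.18, 0.0175), and Ddit3 stood at 1.54 ± 0.45 (0.0889). Without KO male PFOA replicate 2 and the other 2 such libraries, 5 genes passed in KO males: Ddit3, Atf3, Asns, Chac1 and Dnajb9.
The PFOA effect was not shown to differ between the sexes for any of the 35 genes by edgeR's quasi-likelihood test, where 0.104% of all genes passed in hPPARa and 0.241% in KO. Unadjusted p was under 0.05 for 6 genes in hPPARa and 7 in KO, and DESeq2 called 1 (Asns) and 3 (Atf3, Pdia6 and Calr). The male minus female difference was 2.23 ± 0.65 for Asns (adjusted p = 0.297) and 1.06 ± 0.31 for Ddit3 (0.283) in hPPARa, and 4.60 ± 1.31 for Atf3 (0.290) in KO.

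Beyond the 36 genes, counts in other lists are read against the shares of all genes given above, 12.8% higher and 9.76% lower with PFOA in hPPARa, 7.41% and 6.36% in KO, and 7.13% and 7.79% in KO against hPPARa livers on PFOA. Of other ATF4 and CHOP targets in hPPARa livers 5 of 26 rose and 3 fell with PFOA (30.8% called, 22.6% of all genes), among them Eif4ebp1, a brake on translation (0.55 ± 0.11, adjusted p = 0.0023), the lipoprotein receptor Vldlr (0.87 ± 0.19, 0.0082), Cebpb (−0.61 ± 0.12, 0.0031) and the amino acid carrier Slc38a2 (−0.68 ± 0.16, 0.0081). In KO livers 3 of 27 rose and 1 fell (14.8% called, near the 13.8% of all genes): the stress hormone Gdf15 (3.53 ± 0.54, 11.6-fold, 0.0049), the glycine carrier Slc6a9 (0.85 ± 0.14, 0.0020), Eif4ebp1 (0.37 ± 0.11, 0.0434) and Cbs, of transsulfuration (−0.63 ± 0.14, 0.0088). The median log2 fold change of this list was −0.07 in hPPARa (12 of 26 above 0) and 0.13 in KO livers (19 of 27 above 0). Cytosolic transfer RNA synthetases rose for 4 of 18 in hPPARa (Sars, Iars, Gars and Tars, 0.30 to 0.40) and 1 of 18 in KO (Sars, 0.42), and none fell; the shares called in either direction were 22.2% and 5.56%, against 22.6% and 13.8% of all genes. Of 12 other eIF2α kinases and eIF2 regulators, Eif2ak1, the heme-regulated kinase, rose in hPPARa (0.28 ± 0.09, 0.0381). In KO 0 of 12 passed, with 1 at an unadjusted p under 0.05. On PFOA KO livers were higher for 3 of 27 other ATF4 and CHOP targets and lower for 3 (22.2% called, 14.9% of all genes). Their median log2 fold change was −0.06, against 0.52 in the ATF4 arm. Of the synthetases 2 of 18 were higher and 1 lower (16.7% called, median −0.01). Of the eIF2 list 2 of 12 were higher and 1 lower (25% called).
Of 41 other ER folding genes 2 rose and 7 fell in hPPARa livers (22% called, 22.6% of all genes), with a median log2 fold change of −0.01, that of all genes, and of 31 genes of translocation and N-glycosylation 1 rose and 7 fell (25.8% called), with a median of −0.08. Examples were Derl2 (−0.66 ± 0.13, 0.0025), Tram1 (−0.64 ± 0.13, 0.0028) and Rpn1 (−0.49 ± 0.09, 0.0015), against Uggt2, a glycoprotein folding sensor (1.24 ± 0.13, 2.5e-05) and Creb3l3, a liver ER stress factor (0.62 ± 0.12, 0.0023). In KO 2 of 41 (Creb3l3 and Edem3) and 1 of 31 (Stt3b) rose and 0 fell, below the share of all genes. On PFOA KO livers were higher for 10 of 41 and lower for 2, and higher for 8 of 31 (29.3% and 25.8% called, 14.9% of all genes), among them Dad1 (0.61 ± 0.10, 2.0e-04), Os9 (0.49 ± 0.09, 0.0010) and Pdia5 (0.45 ± 0.10, 0.0048). On vehicle 3 of 41 and 2 of 31 were higher, Os9 and Dad1 among them.
Of 12 mitochondrial chaperones and proteases 6 rose and 0 fell in hPPARa livers (50% called), among them Hspd1 (0.75 ± 0.11, 2.7e-04), Lonp1 (0.73 ± 0.11, 3.6e-04), Trap1 (0.65 ± 0.10, 6.7e-04) and Hspa9 (0.58 ± 0.13, 0.0058). In KO 2 of 12 rose (Dnaja3 and Lonp1; 16.7% called), and on PFOA 4 of 12 were lower in KO (33.3% called), Trap1 the most (−0.48 ± 0.09, 9.6e-04). Cytosolic heat shock genes rose for 2 of 17 in hPPARa and 1 of 18 in KO, and none fell (11.8% and 5.56% called, below all genes). Immediate-early genes rose for 2 of 12 and fell for 1 in hPPARa (25% called), with Jun at 0.92 ± 0.21 (0.0092), and rose for 1 of 13 in KO (7.69% called), Myc (1.64 ± 0.39, 0.0271).

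**Figure D5:**
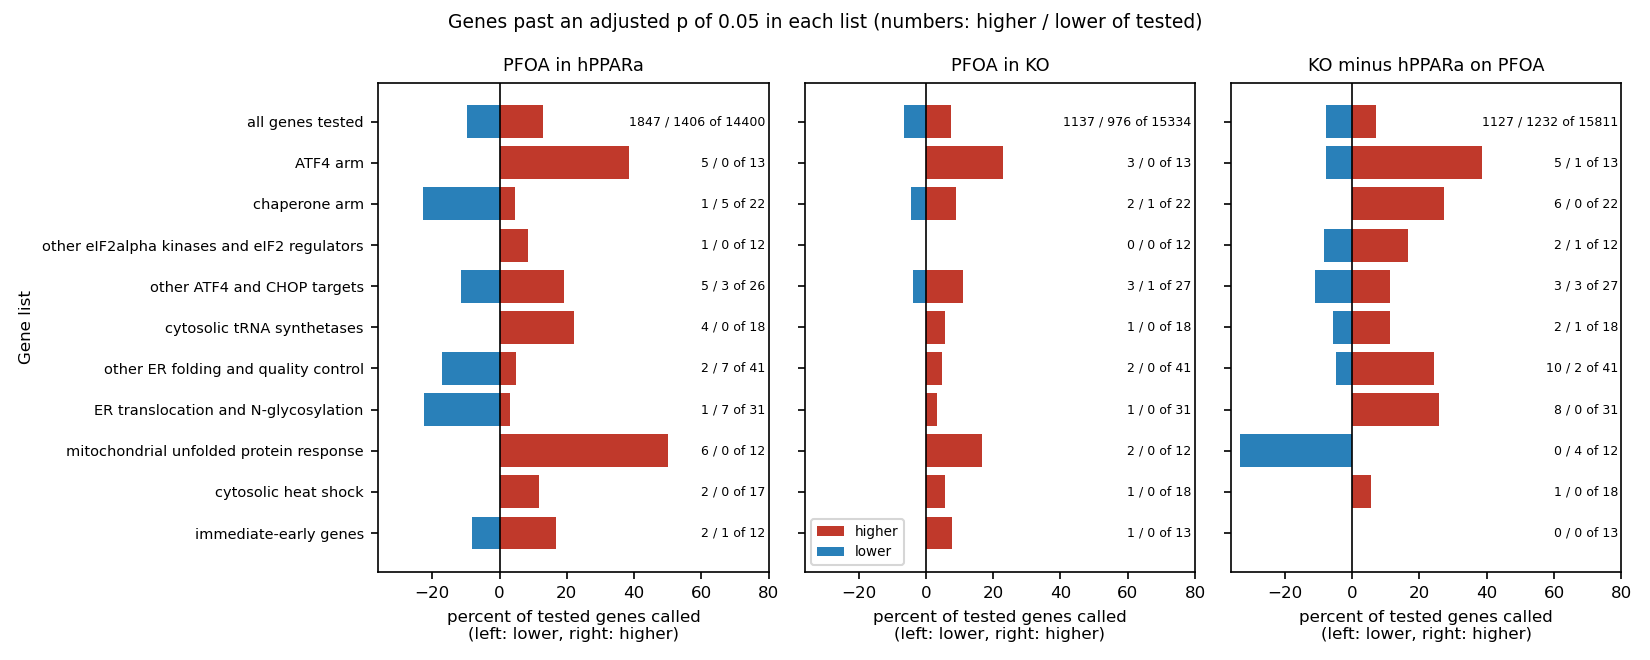
Percent of tested genes with an adjusted p under 0.05 in each gene list (y axis), higher to the right in red and lower to the left in blue (x axis), for 3 comparisons; the numbers give higher and lower of tested, and the top bar all genes. In hPPARa livers all calls of the ATF4 arm (5 of 13) and mitochondrial list (6 of 12) lie to the right and most calls of the ER lists to the left. In KO against hPPARa livers on PFOA most calls of the ATF4 arm and of each ER list lie to the right. In hPPARa livers 22% of the other ER folding list and 25.8% of the translocation list were called, near the 22.6% of all genes.

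Some summed marker lists of cell types lay apart between exposures. Others overlapped, among them the immediate-early list and the share of mitochondrially encoded genes, in both genotypes. Summed hepatocyte markers read 72680 to 95060 CPM in KO PFOA against 96620 to 113900 CPM in KO vehicle livers, and 88680 to 129500 against 118100 to 215800 CPM in hPPARa livers. The pancreatic acinar list summed to 7.90 to 11.4 CPM against 16.8 to 24.5 CPM in KO and to 8.66 to 15.3 against 16.0 to 35.6 CPM in hPPARa livers, lower on PFOA without overlap in both. The B and plasma cell list overlapped between exposures in both genotypes (21.6 to 37.2 against 14.7 to 39.1 CPM in KO, 17.2 to 45.0 against 18.7 to 22.9 CPM in hPPARa). In bulk liver, fewer cells of a type and less RNA of the marker genes per cell cannot be told apart. The part of these shifts in the results was not tested.
Beside the ATF4 arm in KO livers, the 10 neutrophil markers summed to 88.8 to 326 CPM on PFOA against 0.442 to 2.12 CPM on vehicle. S100a8 alone read 87.9 to 325 CPM against 0.253 to 0.541 CPM, while S100a9 read 0.351 to 2.03 CPM, Ly6g was at 0 in 6 of 6 livers, and the other 8 genes together read 0.180 to 1.33 CPM against 0.126 to 0.775 CPM. In hPPARa livers the list read 3.72 to 9.85 CPM on PFOA and 0.739 to 1.66 CPM on vehicle. In KO livers the Kupffer cell list read 285 to 480 CPM on PFOA against 149 to 321 CPM on vehicle, and the cholangiocyte list 36.3 to 75.5 against 82.2 to 218 CPM. In hPPARa livers these lists read 136 to 370 against 159 to 470.1 CPM and 37.6 to 66.4 against 49.1 to 58.5 CPM. Mitochondrially encoded genes took 7.27 to 9.66% of counts in KO PFOA and 8.80 to 14% in KO vehicle livers. The endothelial (212 to 264 against 177 to 260.4 CPM), stellate cell (207 to 325 against 237 to 416 CPM), T and NK cell (4.31 to 10.5 against 3.85 to 11.5 CPM), erythroid (199.5 to 365 against 212 to 364 CPM) and immediate-early (174 to 238 against 129.6 to 219 CPM) sums overlapped between KO exposures. The part of these markers in the results was not tested.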

How the data were processed

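RNA-seq counts per gene of bulk mouse liver were analysed. The submitters' processing notes name STAR 2.5.3 and build GRCm39, featureCounts 1.6.1, edgeR 3.36.0, R 4.1.0, cutadapt 1.15 and FastQC 0.11.5, without the role of each. No source used here gives the annotation release or the strand setting. Raw counts deposited by the authors cover 53599 genes, in 1 table per genotype. Genes of the 2 tables were joined by identifier.

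Counts were tested with edgeR 4.0.16 (R 4.3.3; TMM scaling, filterByExpr with a minimum count of 10, robust quasi-likelihood test) and p-values were adjusted by Benjamini-Hochberg over all genes tested, with a threshold of 0.05. PFOA effects came from each genotype's table with sex as a term, within-sex effects from its groups, and genotype comparisons from all 20 libraries. A standard error is the size of the log2 fold change divided by the root of F. The script was tested on simulated data. Alternatives were DESeq2 1.42.0, other scaling, no filter, a replicate block, other fits and left-out libraries.

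All 36 members were named. From other lists, the called genes of smallest adjusted p, at most 4 each, could be named if they averaged 1 CPM or more. Members and lists were chosen with earlier results of these data known. Libraries within a group differed by more than counting noise (chi-square per gene 7.94 to 46.4).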

Additional observations from a re-analysis of the deposited data

Results flagged for a closer look

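The effect of PFOA passed a test of its difference between KO and hPPARa livers for 4 of the genes named here, 2 of them in few of the alternatives. For Ddit3 (CHOP) the effect in KO minus that in hPPARa was 1.44 ± 0.35 on the log2 scale (SE; edgeR's quasi-likelihood test, adjusted p = 0.0488), for Atf4 0.57 ± 0.14 (adjusted p = 0.0423) and for Ern1 (IRE1α) 0.97 ± 0.19 (adjusted p = 0.0136). For Uggt2, a folding sensor that re-glucosylates misfolded glycoproteins, it was −1.12 ± 0.21 (adjusted p = 0.0119). Uggt2 itself rose by 1.24 ± 0.13 with PFOA in hPPARa livers. The Ddit3 and Atf4 differences passed in 8 of 25 alternatives each and were lost with the replicate block (adjusted p = 0.0550 and 0.0585). That of Ern1 passed in 23 of 25. It was lost without KO female vehicle replicate 1 (adjusted p = 0.0575) and without the 3 KO libraries that also held transcripts of the other sex (adjusted p = 0.171). In both of these fits the KO effect came from males alone.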

How the results depend on the processing

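Values are counts of genes called, each followed, after "against", by that of the reported analysis where it was not yet given. Without a filter on low counts, PFOA in KO gave 5 against 3 in the ATF4 arm and 5 against 3 in the chaperone arm, KO against hPPARa on vehicle 1013 against 596 (chaperone arm 3 against 0), PFOA by genotype 545 against 185 (chaperone arm 2 against 1), PFOA in KO females 1490 against 814, and PFOA by sex 323 against 15 in hPPARa and 381 against 37 in KO. DESeq2 gave 6 ATF4 arm genes in KO, 920 genes on vehicle (1 in the ATF4 arm, 3 in the chaperone arm), 421 by genotype, and 138 and 163 by sex in hPPARa and KO. The joint fit gave 7 ATF4 arm genes in KO, and the fit of the vehicle libraries 304 genes on vehicle with 1 in the ATF4 arm. Without the 3 KO libraries that also held transcripts of the other sex, 630 genes passed for PFOA in KO against 2113 (1 in the chaperone arm), and in KO males 630 against 1395. On vehicle 195 passed (1 in each arm) and by genotype 39 (1 in the ATF4 arm, 0 in the chaperone arm). Fewer libraries were then tested. With no KO female vehicle library left, the vehicle fit inferred that level from KO PFOA females and the PFOA effect in KO males. Atf3 on vehicle then stood at −2.08 (adjusted p = 0.0385).

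Leaving out single libraries gave 1905 to 3889 genes for PFOA in hPPARa (ATF4 arm 3 to 6, chaperone arm 5 to 8), 1401 to 2129 in KO (2 to 6 and 1 to 6), 1638 to 2498 for genotype on PFOA (3 to 6 and 3 to 11), 351 to 701 on vehicle (0 and 0 to 2) and 67 to 239 by genotype (0 to 2 and 0 to 1). Replicate numbers did not pair the libraries (r of −0.0748 to 0.134 over 13 pairs in hPPARa and −0.137 to 0.0366 over 9 pairs in KO); the replicate block gave 1 chaperone arm gene in KO and 0 ATF4 arm genes by genotype. The cause of the other changes was not tested. Psat1 and Mthfd2 had 2 to 87 counts in each library, which limits the precision of their values.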
